A study of Mus musculus with 12 samples.

Results

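The nuclear genes of the oxidative phosphorylation complexes were followed in the pancreas of 8-week-old mice. They were defined as the genes with a probe set of their own whose symbol belongs to the Nduf, Sdh, Uqcr, Cox4 to Cox8 or Atp5 families. This gave 80 of the 18194 genes on the array: 34 of complex I, 4 of complex II, 8 of complex III, 17 of complex IV and 17 of complex V. The 12 arrays came from 12 mice in 4 groups of 3. C57BL6/J mice from Jackson, called J, had cerulein-induced chronic pancreatitis or were saline-injected controls. C57BL6/NHsd mice from Harlan, called NHsd, were treated in the same 2 ways. Cerulein acts on the receptors of the gut hormone cholecystokinin, which drives enzyme secretion by the acinar cells. Only the saline mice are labelled with a sex, female, and no batch is given, so treatment cannot be told apart from sex or from handling. The labels do not say how the 3 mice of a group were housed or processed together, and p-values measure the spread between these mice. Values are log2 signals from whole pancreas, in which a change in the kinds of cells and a change in RNA per cell cannot be told apart.

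The respiratory chain sits in the inner mitochondrial membrane. Complex I takes electrons from NADH and complex II takes them from succinate, both pass them to ubiquinone, complex III passes them on to cytochrome c, and complex IV passes them to oxygen. Complexes I, III and IV pump protons, and complex V, the ATP synthase, uses the proton gradient to make ATP. Acinar cells are rich in mitochondria, and enzyme secretion depends on their ATP. Complex II is encoded in the nucleus alone, and the others join nuclear with mitochondrial subunits.

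The scale of the arrays bears on every result. Of the 80 genes, 71 exceeded log2 4 on at least 3 arrays and were tested among 8505 genes. The median signal of the genes tested was log2 5.98 to 6.23 on the cerulein arrays, against 5.46 to 5.66 on the saline arrays. The share of probe sets above log2 4 was 29.5 to 31.3% on the cerulein arrays, against 26.3 to 27.0% on the saline arrays. The 9 bacterial and phage hybridization spike-ins ran the other way, with means of log2 7.36 to 7.74 on the cerulein arrays, against 8.81 to 10.01 on the saline arrays. The part of labelling or hybridization in these gaps was not tested. Each result is therefore given as deposited and again with equal medians, where every array was shifted so that the median of the genes tested was the same on all arrays. A gene was called at an adjusted p below 0.05 in limma, over all 8505 genes.

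Markers of several cell types also moved with treatment. Among all genes tested 59.4% were called higher and 10.1% lower after cerulein as deposited, and 26.6% and 36.1% with equal medians. Of the 17 tested acinar markers, 1 was called higher and 13 lower after cerulein as deposited (0 and 16 with equal medians), and their summed signal was log2 18.59 to 18.86 on cerulein arrays, against 19.08 to 19.11 on saline arrays. Of the 16 tested macrophage and leukocyte markers 15 were called higher and 0 lower, under both scalings, with sums of log2 12.94 to 13.69 on cerulein arrays, against 9.66 to 10.42 on saline arrays. All 12 fibroblast markers were called higher as deposited, and 11 with equal medians, with sums of log2 13.00 to 14.50 on cerulein arrays, against 11.11 to 11.76 on saline arrays. The 6 tested markers of proliferating cells were all called higher under both scalings. The mean of the 7 on the array was log2 3.65 to 3.79 on saline arrays, against 6.38 to 7.46 on cerulein arrays. A marker under log2 4 on saline arrays could pass the filter only through the cerulein arrays, so the filter favoured this count. Of 7 tested duct markers 5 were called higher and 1 lower, under both scalings. All 7 tested islet markers were called higher as deposited, and 2 with equal medians. Of 6 tested endothelial markers 2 were called higher and 0 lower as deposited, and 0 and 3 with equal medians. All 12 skeletal and cardiac muscle markers stayed at or under log2 4 on all 12 arrays. The part of these cell types in the changes given here was not tested.

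After cerulein, some genes of each of the 5 complexes were called higher as deposited, and some of each were called lower with equal medians. Complex II then had 1 gene higher, 1 lower and a median change near 0. These calls are to be read against the shares of all genes. As deposited, taking the mean of both substrains, 34 of the 71 genes were called higher after cerulein and 5 lower, and 32 were not called. That is 47.9% higher and 7.04% lower, beside 59.4% higher and 10.1% lower among all 8505 genes. The median log2 change of the 71 genes was 0.30, beside 0.49 over all genes, and 0.54 over the 4762 genes that passed a filter at log2 6. With equal medians, 3 genes were called higher and 36 lower, which is 4.23% and 50.7%, beside 26.6% and 36.1% of all genes. The median change was then -0.28, beside -0.10 over all genes. Equal medians lowered the log2 change of every gene by the same 0.58, so the change of sign follows from that constant, and the place of each gene relative to all genes is the same under both scalings. Of the 71 genes 51 lay below the median of all genes, and their own median minus that of all genes was -0.18. After quantile normalization, which is not a constant shift, 11 were called higher and 24 lower (15.5% and 33.8%), beside 28.0% and 34.2% of all genes. The median change was then -0.12, beside -0.06 over all genes. In J mice it was 0.01, beside -0.07, and in NHsd mice -0.21, beside -0.06. The place of the 71 genes below all genes therefore depends on the normalization. In the plot of each gene's change, the genes keep their places around the line of all genes, and the zero line moves.

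**Figure D1:**
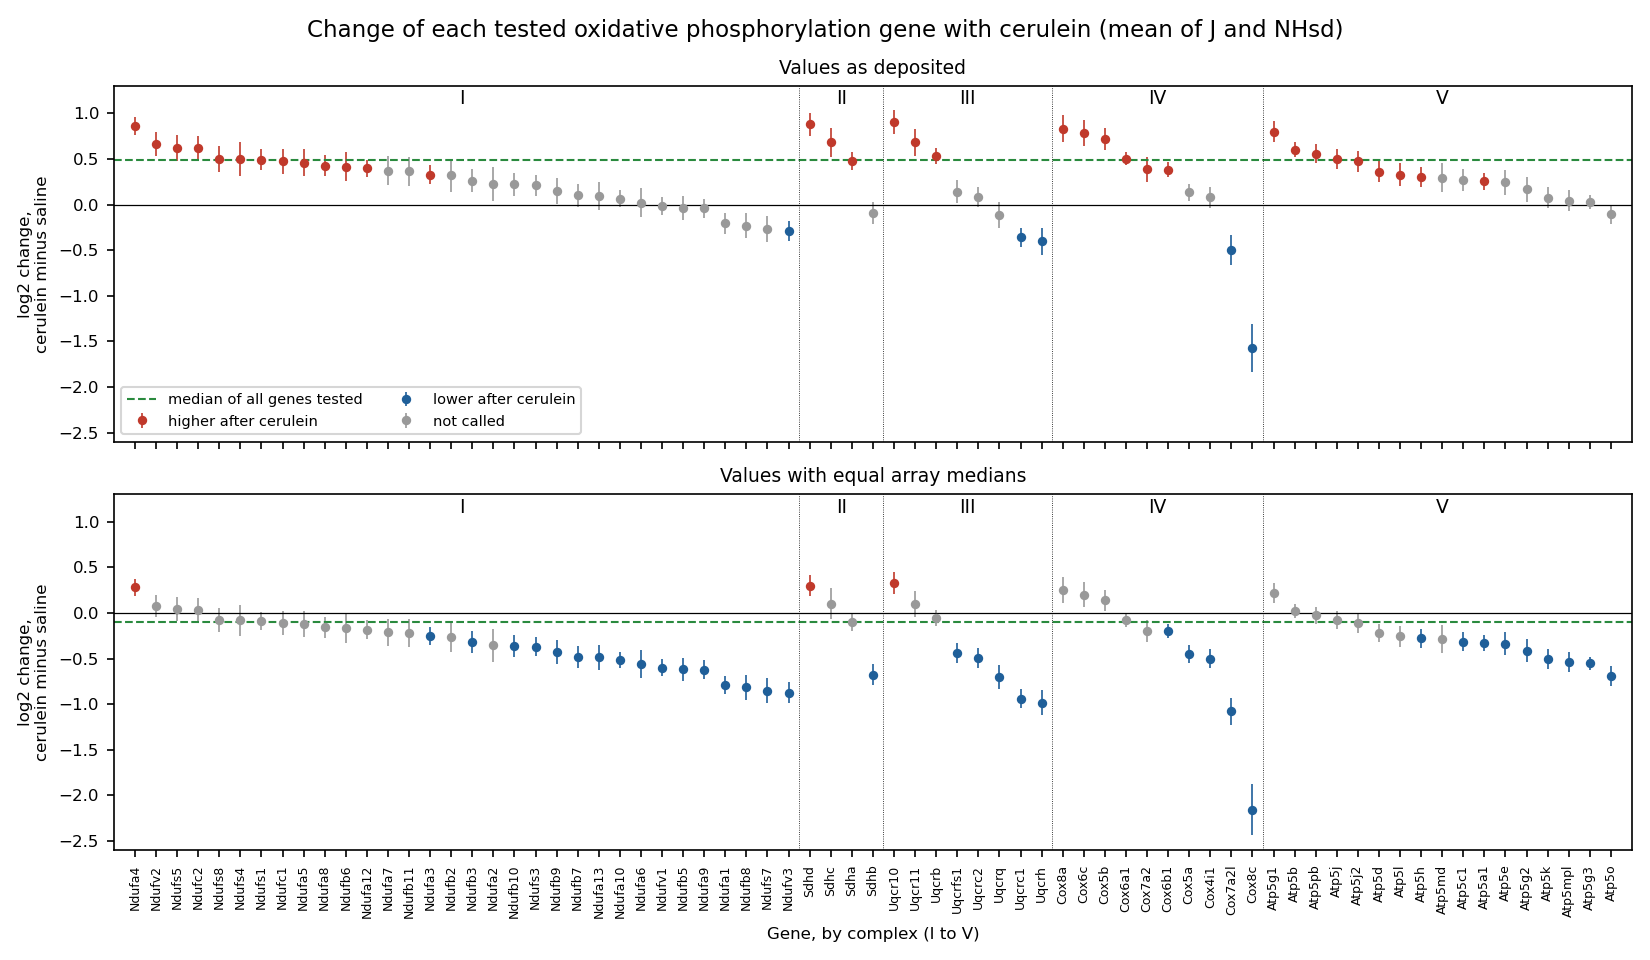
Log2 change, cerulein minus saline as the mean of J and NHsd, of the 71 tested genes in complexes I to V, with values as deposited (top) and with equal array medians (bottom). Points are the fitted changes, bars 1 standard error and the dashed line the median of all 8505 genes; 34 genes were called higher and 5 lower as deposited, 3 higher and 36 lower with equal medians.

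Both direction and call were the same under the 2 scalings for the 3 genes that rose, Ndufa4, Sdhd and Uqcr10, and the 5 that fell, Ndufv3, Uqcrc1, Uqcrh, Cox7a2l and Cox8c. Quantile normalization gave these 8 the same calls. Of the rest, 27 were called higher as deposited and not called with equal medians, and 27 were not called as deposited and lower with equal medians. The genes Ndufa3, Cox6b1, Atp5a1 and Atp5h were called higher as deposited and lower with equal medians. The remaining 5, Ndufa2, Ndufa7, Ndufb2, Ndufb11 and Atp5md, were called under neither scaling.

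**Figure D2:**
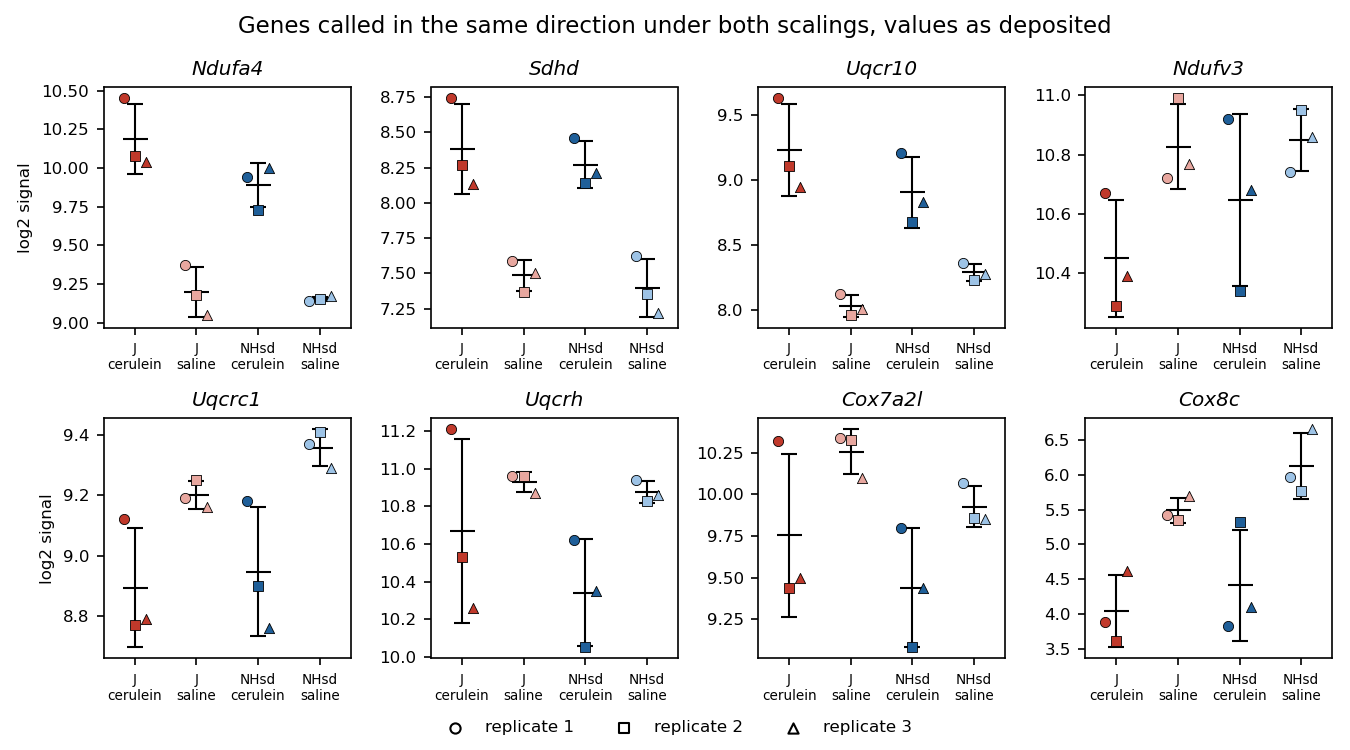
Log2 signal as deposited of the 8 genes called in the same direction under both scalings, in J cerulein, J saline, NHsd cerulein and NHsd saline mice. Symbols are single arrays by replicate number, and the line and bars give the mean ± SD of 3 arrays; Ndufa4, Sdhd and Uqcr10 lie above saline on every cerulein array of both substrains, and Cox8c lies below.

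The counts of each complex are to be read against the all-gene shares of 59.4% higher and 10.1% lower as deposited and 26.6% and 36.1% with equal medians. In complex I, 13 of 32 tested genes (40.6%) were called higher and 1 lower as deposited, with a median change of 0.29, below the 0.49 of all genes. With equal medians 1 was higher and 16 lower (50%), with a median of -0.29, and after quantile normalization 1 and 12. The 6 tested core genes of the arm that oxidizes NADH and reduces quinone ran from -0.27 for Ndufs7, which carries the last iron-sulfur cluster before ubiquinone, to 0.66 for Ndufv2, a subunit next to the site of NADH oxidation. As deposited 3 of those 6 were called higher and 0 lower (3 at an unadjusted p below 0.05), and with equal medians 0 higher and 3 lower. The accessory A genes gave 5 of 12 higher as deposited and 6 of 12 lower with equal medians, and the accessory B and C genes 3 of 11 higher and 6 of 11 lower. Ndufb1 and Ndufb4 did not pass the filter.

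Ndufa4 is named for complex I but is known as a subunit of complex IV. The counts given here keep it in complex I by its symbol. No other gene counted in complex I was called higher with equal medians or after quantile normalization. It read log2 10.45, 10.08 and 10.04 in J cerulein mice, against 9.37, 9.18 and 9.05 in J saline mice. In NHsd mice it read 9.94, 9.73 and 9.999 after cerulein, against 9.14, 9.15 and 9.17 after saline. Every cerulein array lay above every saline array under both scalings. Its log2 change was 0.86 (SE 0.10, limma adjusted p = 1.1e-05) as deposited and 0.28 (SE 0.09, adjusted p = 0.0185) with equal medians. Leaving out each of the 12 arrays in turn kept the call under both scalings, with changes of 0.80 to 0.91 as deposited and 0.21 to 0.33 with equal medians.

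Ndufv3, an accessory subunit of the NADH-binding module, went the other way. It read 10.67, 10.29 and 10.39 in J cerulein mice, against 10.72, 10.99 and 10.77 in J saline mice, and 10.92, 10.34 and 10.68 in NHsd cerulein mice, against 10.74, 10.95 and 10.86 in NHsd saline mice. The groups overlapped as deposited, since NHsd cerulein replicate 1 lay among the saline arrays, and did not overlap with equal medians. The change was -0.29 (SE 0.11, limma adjusted p = 0.0356) as deposited and -0.87 (SE 0.11, adjusted p = 1.83e-05) with equal medians. As deposited the call held in 5 of 12 fits that each left out 1 array, with adjusted p from 0.0123 to 0.0888, and it was lost without a filter on low values (adjusted p = 0.0694).

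Complex II gave 3 of 4 genes higher and 0 lower as deposited (3 at an unadjusted p below 0.05), with a median change of 0.58. With equal medians 1 was higher and 1 lower, with a median near 0, and quantile normalization gave the same counts. With 4 genes, these shares are coarse. Both membrane anchors were called higher as deposited, and 1 of the 2 catalytic subunits. Sdhd, a membrane anchor that helps bind ubiquinone, read 8.74, 8.27 and 8.13 in J cerulein mice, against 7.59, 7.37 and 7.50 in J saline mice, and 8.46, 8.14 and 8.21 in NHsd cerulein mice, against 7.62, 7.35 and 7.22 in NHsd saline mice. All cerulein arrays lay above all saline arrays, also with equal medians. Its change was 0.88 (SE 0.13, limma adjusted p = 5.31e-05) as deposited and 0.30 (SE 0.12, adjusted p = 0.0362) with equal medians. The equal-median call held in 6 of 12 fits that each left out 1 array. A second probe set of Sdhd changed by 0.41 as deposited (adjusted p = 0.0167) and by -0.17 with equal medians (adjusted p = 0.276), so the rise at equal medians rests on 1 probe set.

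Sdhb, the iron-sulfur subunit of complex II, read 10.95, 10.26 and 10.36 in J cerulein mice, against 10.60, 10.50 and 10.45 in J saline mice. In NHsd mice it read 10.71, 10.28 and 10.49 after cerulein, against 10.74, 10.68 and 10.65 after saline. The groups overlapped as deposited, with the highest value on J cerulein replicate 1, and all cerulein arrays lay below all saline arrays with equal medians. The change was -0.10 (SE 0.12, adjusted p = 0.503) as deposited and -0.68 (SE 0.12, adjusted p = 0.000204) with equal medians. The flavoprotein gene Sdha changed by 0.48 (adjusted p = 0.000923) as deposited, and the other anchor gene Sdhc by 0.68 (adjusted p = 0.00209), and neither was called with equal medians.

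Complex III held genes that moved apart. As deposited 3 of 8 (37.5%) were called higher and 2 (25%) lower, with a median change of 0.11. With equal medians 1 was higher and 5 lower, with a median of -0.47, and after quantile normalization 2 and 5. The changes as deposited ran from -0.40 for Uqcrh, the hinge protein that helps cytochrome c dock, to 0.91 for Uqcr10, a small membrane subunit. Uqcrb and Uqcr11, further small subunits, changed by 0.53 and 0.68 as deposited. The core proteins Uqcrc1 and Uqcrc2 and the Rieske iron-sulfur protein Uqcrfs1 were called higher under neither scaling, and all 3 were called lower with equal medians. The other Uqcrc2 probe set was called higher as deposited, at 0.25 (adjusted p = 0.0214), and lower with equal medians, at -0.34 (adjusted p = 0.00488).

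Uqcr10 read 9.63, 9.11 and 8.95 in J cerulein mice, against 8.12, 7.96 and 8.01 in J saline mice, and 9.21, 8.68 and 8.83 in NHsd cerulein mice, against 8.36, 8.23 and 8.28 in NHsd saline mice. All cerulein arrays lay above all saline arrays as deposited, and the NHsd groups overlapped with equal medians. The change was 0.91 (SE 0.13, limma adjusted p = 5.84e-05) as deposited and 0.32 (SE 0.12, adjusted p = 0.0309) with equal medians. The equal-median call held in 7 of 12 fits that each left out 1 array. The other 2 probe sets of Uqcr10 changed by 0.28 and 0.41 as deposited, the second called, and by -0.30 and -0.17 with equal medians, neither called.

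Uqcrh read 11.21, 10.53 and 10.26 in J cerulein mice, against 10.96, 10.96 and 10.87 in J saline mice, and 10.62, 10.05 and 10.35 in NHsd cerulein mice, against 10.94, 10.83 and 10.86 in NHsd saline mice. J cerulein replicate 1 was the highest of all 12 arrays as deposited, and the other 5 cerulein arrays lay below every saline array. The change was -0.40 (SE 0.15, limma adjusted p = 0.0286) as deposited and -0.98 (SE 0.14, adjusted p = 3.23e-05) with equal medians. The second Uqcrh probe set changed by -0.33 as deposited (adjusted p = 0.0223) and by -0.91 with equal medians. Leaving out 1 array at a time, the call as deposited held in 6 of 12 fits, with changes from -0.54 to -0.30, and it was lost without a filter on low values (adjusted p = 0.0799).

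Uqcrc1, a core protein of complex III, read 9.12, 8.77 and 8.79 in J cerulein mice, against 9.19, 9.25 and 9.16 in J saline mice. In NHsd mice it read 9.18, 8.90 and 8.76 after cerulein, against 9.37, 9.41 and 9.29 after saline. Within each substrain all cerulein arrays lay below all saline arrays. The change was -0.36 (SE 0.10, limma adjusted p = 0.00688) as deposited and -0.94 (SE 0.11, adjusted p = 5.49e-06) with equal medians, and it was called in all 12 fits that each left out 1 array, under both scalings.

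Of the 17 complex IV genes, 10 were tested, and Ndufa4 is not among them, since its symbol places it with complex I. As deposited 6 (60%) were called higher and 2 (20%) lower, with a median change of 0.38. Quantile normalization gave 5 higher and 2 lower, with a median of 0.16. With equal medians 0 were higher (5 genes, all lower, had an unadjusted p below 0.05) and 5 were lower, with a median of -0.20. Cox8a, a small membrane subunit, read 9.71, 9.01 and 8.96 in J cerulein mice, against 8.05, 8.10 and 8.27 in J saline mice, and 9.33, 8.77 and 8.99 in NHsd cerulein mice, against 8.49, 8.64 and 8.22 in NHsd saline mice. The treatments did not overlap as deposited and overlapped with equal medians. Its change was 0.83 (SE 0.15, limma adjusted p = 0.000327) as deposited and 0.25 (SE 0.14, adjusted p = 0.148) with equal medians.

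Several complex IV subunits have a general form and a form known from muscle, heart, lung or testis. Cox4i1, Cox6a1, Cox6b1, Cox7a2 and Cox8a are general forms. Cox6a1 read 13.25, 13.05 and 13.02 in J cerulein mice, against 12.43, 12.43 and 12.46 in J saline mice, and 12.76, 12.62 and 12.95 in NHsd cerulein mice, against 12.48, 12.45 and 12.38 in NHsd saline mice. It rose as deposited by 0.50 (SE 0.07, adjusted p = 7.19e-05) and was not called with equal medians, at -0.08 (SE 0.07, adjusted p = 0.365). All cerulein arrays of Cox6a1 lay above all saline arrays as deposited. Cox4i1, whose protein is the largest nuclear subunit, averaged 12.31 ± 0.27 after cerulein, against 12.23 ± 0.04 after saline (SD, n = 6 each), a change of 0.08 as deposited (adjusted p = 0.543) and -0.50 with equal medians (adjusted p = 0.000854). Cox6b1 read 12.54, 12.36 and 12.33 in J cerulein mice, against 11.98, 11.79 and 11.94 in J saline mice, and 12.34, 11.98 and 12.25 in NHsd cerulein mice, against 11.98, 11.88 and 11.94 in NHsd saline mice. Its groups touched in NHsd mice and lay apart in J mice. Cox6b1 and Cox7a2 changed by 0.38 and 0.39 as deposited, both called. Their second probe sets changed by 0.26 (limma adjusted p = 0.0574) and 0.23 (adjusted p = 0.197) as deposited, neither called. With equal medians Cox6b1 changed by -0.20 (adjusted p = 0.0329) and Cox7a2 by -0.20 (adjusted p = 0.174).

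The tissue-restricted forms were at the low end of the scale. Cox4i2, Cox6a2, Cox6b2, Cox7b2 and Cox8b stayed under log2 4 on all 12 arrays. Cox7a1, the muscle and heart form, reached 4.54 on J cerulein replicate 1 and ran from 2.40 to 3.04 on the other 11 arrays. Cox7c, a general subunit, exceeded log2 4 on 2 arrays with the probe sets it has here. None of these was tested.

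Cox8c, a form known from testis, was the exception. It read 3.89, 3.62 and 4.62 in J cerulein mice, against 5.42, 5.35 and 5.69 in J saline mice, and 3.83, 5.32 and 4.10 in NHsd cerulein mice, against 5.96, 5.76 and 6.65 in NHsd saline mice. All cerulein arrays lay below all saline arrays, and 3 of them lay under log2 4, so the size of the fall is inexact. The change was -1.57 (SE 0.26, limma adjusted p = 0.000182) as deposited and -2.16 (SE 0.28, adjusted p = 2.13e-05) with equal medians. The value comes from 1 probe set of a type that can bind related transcripts, and the other Cox8c probe set did not pass the filter, so the identity of this signal is uncertain.

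Cox7a2l encodes the factor that joins complexes III and IV in supercomplexes, and C57BL/6 mice are known to carry a shortened form of it. It read 10.32, 9.44 and 9.50 in J cerulein mice, against 10.34, 10.33 and 10.10 in J saline mice, and 9.80, 9.08 and 9.44 in NHsd cerulein mice, against 10.07, 9.86 and 9.85 in NHsd saline mice. J cerulein replicate 1 lay among the J saline arrays, and the other 5 cerulein arrays lay below every saline array. The change was -0.50 (SE 0.16, limma adjusted p = 0.0168) as deposited and -1.08 (SE 0.15, adjusted p = 3.57e-05) with equal medians. Its other 2 probe sets changed by -0.53 (adjusted p = 0.0129) and -0.37 (adjusted p = 0.0905) as deposited, and both were called lower with equal medians. The call of Cox7a2l held in all 12 fits that each left out 1 array, under both scalings. It was lost as deposited when no filter was set on low values (adjusted p = 0.0556).

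In complex V 9 of 17 genes (52.9%) were called higher and 0 lower as deposited (10 genes had an unadjusted p below 0.05), with a median change of 0.30. With equal medians 0 were higher and 9 lower (10 genes had an unadjusted p below 0.05), with a median of -0.29, and after quantile normalization 2 were higher and 4 lower. The F1 head, which makes ATP, gave 3 of 5 higher as deposited, with Atp5b, the catalytic beta subunit, at 0.60 (SE 0.08, limma adjusted p = 3.14e-05). Atp5b changed by 0.02 with equal medians (adjusted p = 0.824). The peripheral stalk, which holds the head still, gave 3 of 4 higher. Among the genes counted as higher, Atp5h of the stalk and Atp5d of the head have second probe sets that were not called as deposited. These changed by -0.01 (limma adjusted p = 0.958) and 0.04 (adjusted p = 0.748). The remaining stalk gene Atp5o read 11.14, 10.71 and 10.61 in J cerulein mice, against 10.91, 10.88 and 10.92 in J saline mice, and 10.96, 10.53 and 10.70 in NHsd cerulein mice, against 10.80, 10.97 and 10.82 in NHsd saline mice. The groups overlapped as deposited, and Atp5o changed by -0.11 (SE 0.11, adjusted p = 0.383) as deposited and -0.69 (SE 0.11, adjusted p = 8.11e-05) with equal medians.

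Subunit c, the ring that turns as protons pass, is encoded by Atp5g1, Atp5g2 and Atp5g3, whose proteins share 1 mature form and differ in the peptide that targets them to mitochondria. Atp5g1 read 10.66, 10.11 and 10.06 in J cerulein mice, against 9.29, 9.10 and 9.32 in J saline mice, and 9.999, 9.91 and 10.04 in NHsd cerulein mice, against 9.51, 9.50 and 9.26 in NHsd saline mice. The treatments did not overlap as deposited, and its change was 0.80 (SE 0.11, limma adjusted p = 5.22e-05). Atp5g2 read 9.58, 9.06 and 8.98 in J cerulein mice, against 9.07, 8.86 and 9.03 in J saline mice, and 9.25, 8.70 and 9.10 in NHsd cerulein mice, against 9.06, 9.02 and 8.64 in NHsd saline mice. Its groups overlapped in both substrains. Atp5g2 averaged 9.11 ± 0.29 after cerulein, against 8.94 ± 0.17 after saline (SD, n = 6 each), and changed by 0.17 (SE 0.14, adjusted p = 0.295). Atp5g3 averaged 11.97 ± 0.14 after cerulein, against 11.94 ± 0.05 after saline (SD, n = 6 each), and changed by 0.03 (SE 0.08, adjusted p = 0.766). With equal medians the 3 changes were 0.22 (adjusted p = 0.106), -0.41 (adjusted p = 0.0103) and -0.55 (adjusted p = 2.31e-05). The differences between the 3 genes were not tested.

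Nuclear genes of the respiratory chain are known targets of nuclear respiratory factor 1, of ETS factors of the GABP type and of YY1, so the promoters of 6 genes that moved apart are shown. They are the 100 bases before the RefSeq start in GRCm38.p6, on the strand of the gene, with capitals for the letters GCGCA and GCGC with any base between them (NRF1), CCGGAAG (ETS) and AAGATGGC (YY1) on either strand. The coordinates, all on the minus strand, are chr6:11907451-11907550 for Ndufa4, chr9:50603850-50603949 for Sdhd, chr4:116075071-116075170 for Uqcrh, chr17:83514334-83514433 for Cox7a2l, chr11:96075632-96075731 for Atp5g1 and chr15:102671048-102671147 for Atp5g2.
Ndufa4: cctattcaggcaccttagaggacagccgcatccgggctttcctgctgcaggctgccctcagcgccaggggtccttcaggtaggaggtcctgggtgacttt
Sdhd: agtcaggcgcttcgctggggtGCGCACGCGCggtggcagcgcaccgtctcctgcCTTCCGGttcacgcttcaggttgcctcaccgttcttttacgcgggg
Uqcrh: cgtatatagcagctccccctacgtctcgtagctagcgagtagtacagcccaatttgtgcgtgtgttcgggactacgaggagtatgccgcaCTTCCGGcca
Cox7a2l: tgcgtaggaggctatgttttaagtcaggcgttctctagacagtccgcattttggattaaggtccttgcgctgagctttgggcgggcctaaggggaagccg
Atp5g1: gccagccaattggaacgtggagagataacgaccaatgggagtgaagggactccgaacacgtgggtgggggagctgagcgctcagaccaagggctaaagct
Atp5g2: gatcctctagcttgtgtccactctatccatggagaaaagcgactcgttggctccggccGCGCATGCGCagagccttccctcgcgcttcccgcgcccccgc
Among these, Sdhd held an NRF1 match that begins 79 bases before the start and an ETS match 46 bases before it, Uqcrh an ETS match 10 bases before it, and Atp5g2 an NRF1 match 42 bases before it. A gene that rose and a gene that fell both held ETS letters, and a gene of each kind held no match in this stretch.

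Over the full RefSeq windows, from 250 bases before to 50 bases after the start, 66 of the 80 genes had a promoter. NRF1 letters lay in 15 of the 66 (22.7%), beside 5.19% of 27025 genes and 12.7% of the 6945 tested genes with a window. ETS letters lay in 17 (25.8%), beside 9.93% and 21.3%, and YY1 letters in 9 (13.6%), beside 3.19% and 5.67%. Matches of different motifs were counted separately and could overlap. The 14 tested genes with NRF1 letters had a median change of 0.29 as deposited, with 7 called higher and 1 lower, and the 45 without had a median of 0.33, with 22 higher and 3 lower. The 17 tested genes with ETS letters had a median of 0.33, with 10 higher and 1 lower, and the 42 without had 0.32, with 19 higher and 3 lower. The 9 with YY1 letters had a median of 0.47, with 6 higher and 0 lower, and the 50 without had 0.31, with 23 higher and 4 lower. With equal medians the medians were -0.30 with and -0.25 without NRF1 letters, -0.25 and -0.26 for ETS, and -0.11 and -0.27 for YY1. No difference between genes with and without the letters was tested, and a match is a run of letters, not a shown binding site.

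One array bore on the results in J mice. J cerulein replicate 1 was the highest array of its group for 64 of the 71 genes (90.1%), beside 42.3% of all genes tested. The median of the 71 genes lay 0.59 above the mean of the other 2 J cerulein arrays, while the median over all genes lay at -0.01. The excess was seen in every complex, from 0.50 in complex IV to 0.70 in complex I. It was not measured for the other mitochondrial gene lists as a whole, and values of some of their genes on this array are given with those lists. The same array had the lowest fibroblast sum of the cerulein arrays, log2 13.00 against 14.50 and 14.14 on the other 2 of its group, while its acinar sum was 18.62 against 18.72 and 18.77. Its mean correlation with its group was the lowest of the 12 arrays, at 0.951 over the genes tested. NHsd cerulein replicate 1 was the highest of its group for 53 genes, with a median excess of 0.30, beside 0.09 over all genes. The part of sample quality or of cell content in either array was not tested.

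**Figure D3:**
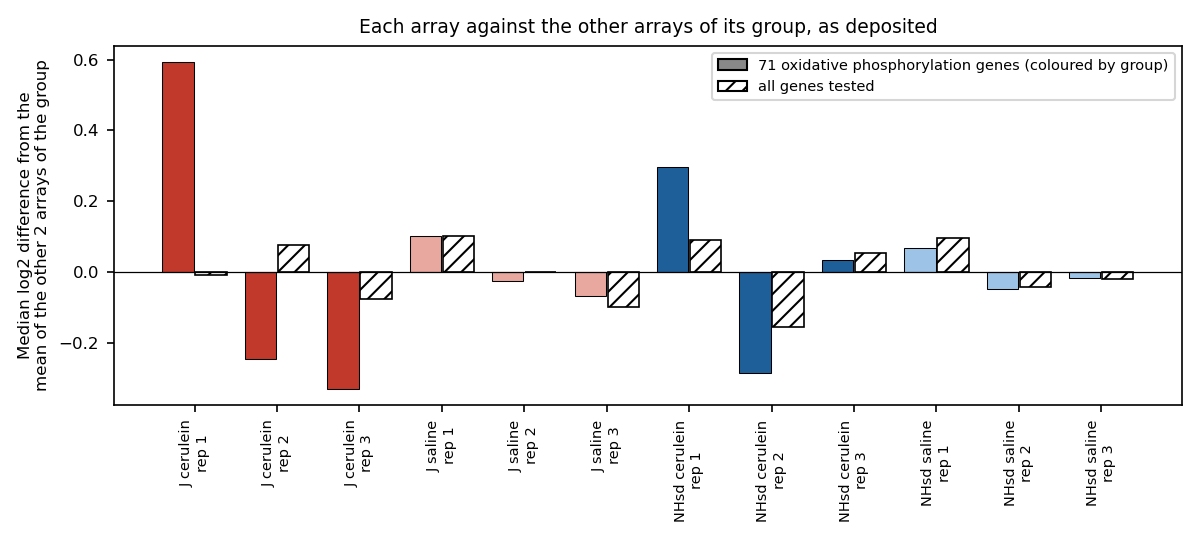
Median log2 difference of each array from the mean of the other 2 arrays of its group, as deposited, for the 71 oxidative phosphorylation genes (coloured bars) and for all 8505 genes tested (hatched bars). J cerulein replicate 1 stands at 0.59 for the 71 genes and at -0.01 for all genes.

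The medians of the complexes per array show the same. For complex I the median of the 32 genes was 10.51, 9.92 and 9.89 in J cerulein mice, against 9.74, 9.65 and 9.70 in J saline mice, and 9.86, 9.73 and 9.87 in NHsd cerulein mice, against 9.71, 9.59 and 9.67 in NHsd saline mice. With equal medians the 3 J cerulein arrays gave 10.20, 9.52 and 9.63, against 9.92, 9.92 and 10.02 in J saline mice, so replicate 1 lay above all saline arrays and the other 2 below them. In NHsd mice the cerulein arrays gave 9.54, 9.59 and 9.55, all below the saline arrays at 9.95, 9.96 and 10.04. For complex II the median of the 4 genes was 8.34, 8.31 and 8.16 in J cerulein mice, against 7.70, 7.59 and 7.59 in J saline mice, and 8.38, 8.19 and 8.25 in NHsd cerulein mice, against 7.74, 7.48 and 7.43 in NHsd saline mice. As deposited, all cerulein arrays lay above all saline arrays of both substrains there, and with equal medians they overlapped.

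**Figure D4:**
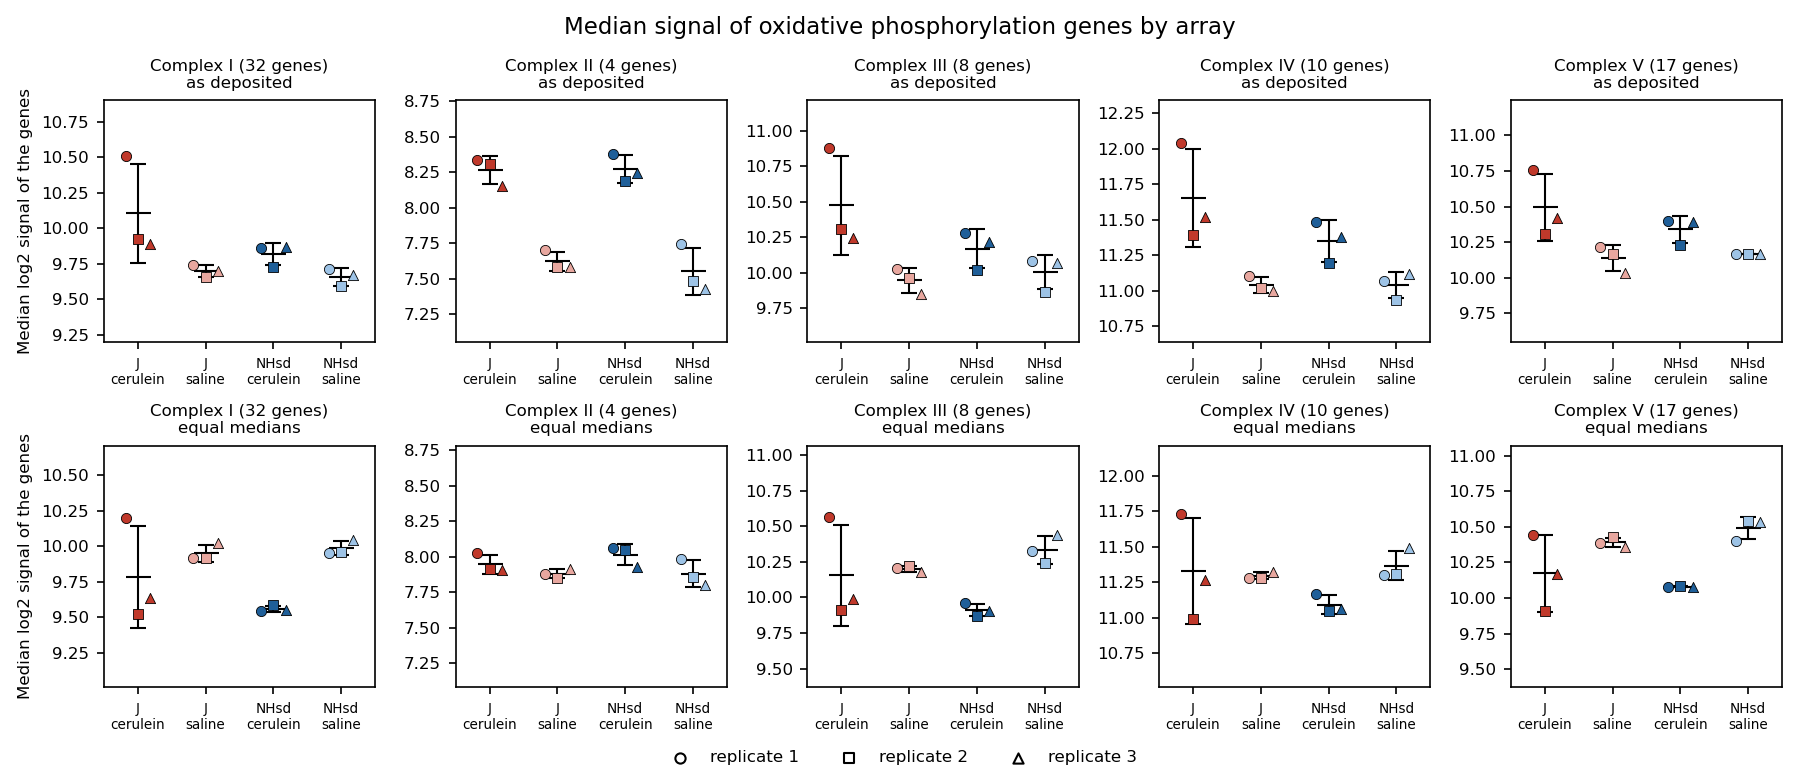
Median log2 signal of the tested genes of complexes I to V on each array, as deposited (top) and with equal array medians (bottom), in J cerulein, J saline, NHsd cerulein and NHsd saline mice. Symbols are arrays by replicate number, and the line and bars give the mean ± SD of 3 arrays; J cerulein replicate 1 lies above the other arrays of its group in every complex under both scalings.

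Without J cerulein replicate 1, 34 of the 71 genes were called higher and 7 lower as deposited, as the mean of both substrains, with a median change of 0.19, beside 0.48 over all genes. The shares of all genes called were 61.0% higher and 11.3% lower. With equal medians and without that array, 3 were called higher and 51 lower, with a median of -0.39, beside 29.2% and 39.8% of all genes and a median of -0.10. By complex, 26 of 32 genes of complex I, 1 of 4 of complex II, 5 of 8 of complex III, 6 of 10 of complex IV and 13 of 17 of complex V were then lower. The 3 genes called higher were again Ndufa4, Sdhd and Uqcr10.

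Within J mice, 30 of the 71 genes were called higher and 1 lower (Cox8c) as deposited, with a median change of 0.43, beside 47.8% and 7.61% of all genes and a median of 0.47. With equal medians 3 were higher and 22 lower, beside 20.9% and 29.4% of all genes. Those 3 were Ndufa4, Uqcr10 and Atp5g1. After quantile normalization 10 were higher and 13 lower, beside 21.8% and 27.3%. Without replicate 1 of the cerulein group the counts in J mice were 26 higher and 7 lower as deposited, beside 49.2% and 8.43%, with a median of 0.19. With equal medians they were then 2 and 39, beside 22.9% and 33.3%, with a median of -0.40.

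Within NHsd mice 17 genes were called higher and 3 lower (Uqcrc1, Uqcrh and Cox8c) as deposited, with a median change of 0.21, beside 48.7% and 6.60% of all genes and a median of 0.49. With equal medians limma called 0 higher and 33 lower, with a median of -0.38, beside 20.2% and 28.8% of all genes and a median of -0.10. After quantile normalization 3 were higher and 22 lower, beside 21.4% and 26.5%. The NHsd counts rest on the spread of all 12 arrays: when J cerulein replicate 1 was left out of the fit they were 27 higher and 5 lower as deposited, beside 53.7% and 8.09% of all genes, and 1 higher and 49 lower with equal medians, beside 23.8% and 34.3%.

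The substrains were compared directly. The cerulein effect in J minus that in NHsd had a median of 0.21 over the 71 genes and was above 0 for 64 of them. No gene was called for this difference in limma (0 of 71; 2 at an unadjusted p below 0.05; lowest adjusted p = 0.702), beside 0.0118% of all genes called higher and 0.00% lower. Without J cerulein replicate 1 the median difference was 0.02, with 42 of 71 above 0 and 0 at an unadjusted p below 0.05. The smallest p belonged to Uqcr10, at a difference of 0.59 (SE 0.26, adjusted p = 0.702). For Ndufa4 the difference was 0.26 (SE 0.20), for Sdhd 0.02 (SE 0.25), for Uqcrc1 0.11 (SE 0.20), for Uqcrh 0.28 (SE 0.30) and for Cox7a2l -0.01 (SE 0.33), so these data do not set close bounds on a difference.

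No gene of the complexes was called between J and NHsd mice under the same treatment. After cerulein, J against NHsd gave 0 of 71 called in limma (5 at an unadjusted p below 0.05; lowest adjusted p = 0.33), beside 0.165% of all genes higher and 0.0588% lower, with a median of 0.20, or 0.02 without J cerulein replicate 1. After saline, J against NHsd gave 0 of 71 called (0 at an unadjusted p below 0.05; lowest adjusted p = 0.829), beside 0.0118% higher and 0.0470% lower, with a median of 0.00. With equal medians 0 were called after cerulein (4 at an unadjusted p below 0.05; beside 0.141% and 0.118% of all genes) and 0 after saline (0 at an unadjusted p below 0.05; beside 0.0118% and 0.0588%). Across the 71 genes the change in J and the change in NHsd had a Pearson r of 0.92 and a Spearman rho of 0.89, and 0.94 and 0.96 without J cerulein replicate 1. The 2 changes come from different mice but share probe sets and normalization, and genes are not independent.

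**Figure D5:**
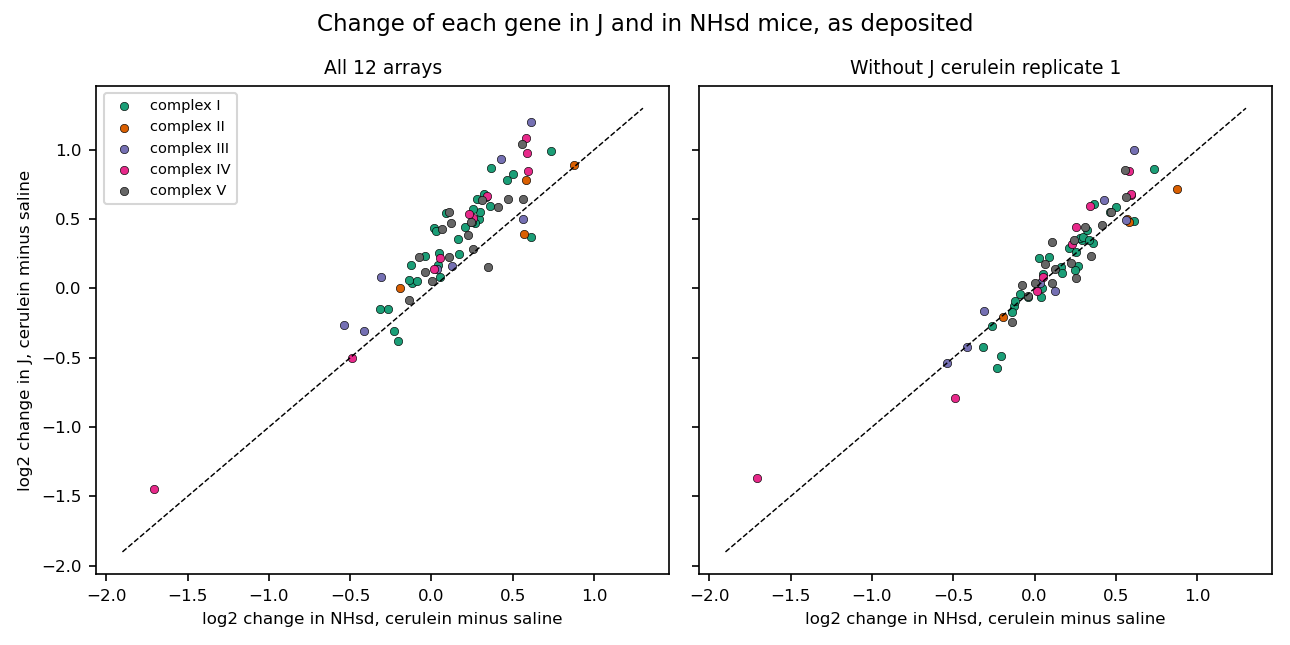
Log2 change, cerulein minus saline as deposited, of each of the 71 genes in J mice (vertical axis) against NHsd mice (horizontal axis), coloured by complex, with all 12 arrays (left) and without J cerulein replicate 1 (right). The dashed line marks equal change; the median J minus NHsd difference is 0.21 on the left and 0.02 on the right.

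Other mitochondrial gene groups were read beside the complexes, from lists of known genes, and their shares are to be read against the same 59.4% higher and 10.1% lower of all genes as deposited, with a median of 0.49. Of 26 tested genes of protein import and chaperones, 21 (80.8%) were called higher and 0 lower as deposited (22 at an unadjusted p below 0.05). Their median was 0.61. With equal medians 8 (30.8%) were higher and 4 (15.4%) lower, the median then being 0.03. Hspd1, the mitochondrial chaperonin, read 9.84, 10.58 and 10.27 in J cerulein mice, against 8.46, 8.30 and 8.34 in J saline mice, and 10.07, 10.05 and 10.35 in NHsd cerulein mice, against 8.31, 7.90 and 8.20 in NHsd saline mice. It changed by 1.94 (SE 0.13, limma adjusted p = 1.24e-07) as deposited and 1.36 (SE 0.12, adjusted p = 5.29e-07) with equal medians, and on J cerulein replicate 1 it was the lowest of its group. Its partner Hspe1 changed by 1.62 and 1.04, and Timm8a1, an import chaperone of the space between the membranes, by 1.37 and 0.79, all called. On J cerulein replicate 1 Hspe1 read 10.20, against 9.56 and 9.45 on the other arrays of its group. Timm8a1 read 8.79 there, against 7.83 and 7.82. Unlike Hspd1, both were the highest of their group on that array.

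The mitochondrial ribosomal proteins serve translation of the mitochondrial subunits. Of 76 tested, 46 (60.5%, close to all genes) were higher and 0 lower as deposited (48 at an unadjusted p below 0.05), with a median of 0.45. With equal medians 9 (11.8%) were higher and 23 (30.3%) lower, both under the shares of all genes, with a median of -0.14. The biogenesis and transcription genes gave 10 of 16 (62.5%) higher and 1 lower as deposited. With equal medians 4 (25%) were higher and 5 (31.2%) lower, both near the shares of all genes. Among them Ssbp1, which coats single-stranded mitochondrial DNA, changed by 1.86 as deposited and 1.28 with equal medians, and Slirp, a partner in handling mitochondrial RNA, by 1.36 and 0.78, all called. Pprc1, a coactivator related to PGC-1, changed by 1.20 and 0.62, both called. On J cerulein replicate 1 Slirp read 9.06, against 8.26 and 8.01 on the other arrays of its group. Pprc1 read 5.66 there, against 6.85 and 6.58, and Ssbp1 10.37, against 10.38 and 10.25.

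In the tricarboxylic acid cycle and pyruvate list, which supplies NADH and succinate, 12 of 22 genes (54.5%) were higher and 1 lower as deposited, with a median of 0.37, and 2 higher and 11 lower with equal medians, with a median of -0.21. Mdh2, malate dehydrogenase, changed by 1.32 (SE 0.09, limma adjusted p = 1.58e-07) as deposited and 0.74 with equal medians. Dld, a subunit shared by the pyruvate and oxoglutarate dehydrogenases, changed by 1.41 and 0.83, both called. Pcx, pyruvate carboxylase, changed by -0.80 (SE 0.12, adjusted p = 0.000102) as deposited and -1.39 with equal medians.

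Complex I assembly factors and further subunits gave 9 of 15 (60%) higher and 0 lower as deposited (9 at an unadjusted p below 0.05). Their median was 0.46. With equal medians 1 (6.67%) was higher and 5 (33.3%) lower, with a median of -0.12. Factors for complexes II to V with cytochrome c gave 12 of 34 (35.3%) higher and 0 lower as deposited (12 at an unadjusted p below 0.05). With equal medians 2 (5.88%) were higher and 16 (47.1%) lower. Both scalings gave a rise for Cycs, cytochrome c, which changed by 0.95 (SE 0.12, limma adjusted p = 1.75e-05) and 0.36 (SE 0.12, adjusted p = 0.0148), and for Cox18, a complex IV assembly factor, at 1.27 and 0.68. On J cerulein replicate 1 Cycs read 12.18, against 11.52 and 11.54 on the other arrays of its group. Cox18 read 5.57 there, against 5.30 and 5.42. Carriers and kinases gave 5 of 13 (38.5%) higher and 2 lower as deposited, and 2 (15.4%) higher and 8 (61.5%) lower with equal medians. There Slc25a4, an ADP/ATP carrier, changed by 1.76 (SE 0.13, limma adjusted p = 2.12e-07) and 1.17. Ckb, the cytosolic brain-type creatine kinase, changed by 2.51 (SE 0.16, limma adjusted p = 9.67e-08) and 1.93. Ckb read log2 3.38 to 4.40 on saline arrays, against 5.79 to 6.72 on cerulein arrays. It passed the filter only through the cerulein arrays, so the size of its rise is inexact. Both genes are named for the size of their change as deposited.

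ND5, the mitochondrially encoded subunit gene of complex I that was tested, read 9.55, 12.30 and 12.08 in J cerulein mice, against 12.27, 12.38 and 12.03 in J saline mice, and 12.16, 11.50 and 12.44 in NHsd cerulein mice, against 11.69, 10.78 and 11.96 in NHsd saline mice. J cerulein replicate 1, which was the highest of its group for most nuclear genes of the complexes, was the lowest of all 12 arrays for ND5, and the other groups overlapped. As deposited ND5 changed by -0.91 in J mice (SE 0.57, limma adjusted p = 0.19) and by 0.56 in NHsd mice (SE 0.57, adjusted p = 0.432). With equal medians it was called lower in J mice, at -1.49 (adjusted p = 0.0329), and not in NHsd mice, at -0.03 (adjusted p = 0.967). The difference between the substrains was not called under either scaling (adjusted p = 0.719 and 0.639).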

How the data were processed

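Signals came from whole-pancreas arrays of 12 mice, 3 in each group. The table the authors deposited holds log2 signals, used as given. GCRMA and Partek are named in the submitters' processing notes, and other steps are not given in the sources used here. Of 45101 probe sets, 34958 carried 1 gene symbol in the platform annotation, 932 carried several and 9211 none, and 0 symbols needed updating in RefSeq. A gene was represented by its probe set with the highest mean and kept above log2 4 on at least 3 of 12 arrays, so a gene high in 1 group could pass through that group. The 80 genes had 163 probe sets.

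Group means were fitted to all 12 arrays together in limma 3.58.1 (R 4.3.3), with moderated statistics, an intensity trend and 8 residual degrees of freedom. Tests were two-sided, with Benjamini-Hochberg adjustment over 8505 genes, and the fit was tested on simulated data. Alternatives were equal medians, quantile normalization, other filters and moderation, the mean of probe sets, a replicate term, only the groups compared, and leaving out each array. Genes chosen for naming were those called with the largest rise and fall in each complex and those called alike under both scalings. Isoform pairs, subunit c and up to 3 genes from each pathway list by size were also chosen. Some of these are given by their change or mean alone, and not every chosen pathway gene is named. Further genes named in the text were added after their values were seen. The genes, lists and tests were chosen with earlier results of these data known. Promoters came from RefSeq, build GRCm38.p6. Arrays carry no read depth, and 3 arrays per group limit the precision.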

Additional observations from a re-analysis of the deposited data

How the results depend on the processing

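The scaling had the largest effect on the counts, and cerulein against saline is meant in each sentence that names no other comparison. As the mean of both substrains, 34 genes were higher and 5 lower as deposited, 3 and 36 with equal medians, 11 and 24 after quantile normalization, and 3 and 51 with equal medians and J cerulein replicate 1 left out. In J mice the counts were 30 and 1, 3 and 22, 10 and 13, and 2 and 39 under the same settings, and in NHsd mice 17 and 3, 0 and 33, 3 and 22, and 1 and 49. With a filter at log2 6 limma called 0 lower in J mice, where Cox8c was no longer tested. Without a filter 1 gene, Cox6a2, was lower in J than in NHsd mice after saline, with all its values under log2 4. Leaving out each array in turn as deposited gave 29 to 38 higher and 3 to 7 lower as the mean of both substrains, 22 to 37 and 1 to 7 in J mice, and 9 to 27 and 1 to 5 in NHsd mice. With equal medians the ranges were 1 to 4 higher and 29 to 51 lower, 1 to 6 and 14 to 39 in J mice, and 0 to 1 and 22 to 49 in NHsd mice; these and the probe set fits were chosen after seeing the data. The low counts of lower genes as deposited moved with single arrays: 3 were lower without J cerulein replicate 2 or 3, J saline replicate 2 or NHsd cerulein replicate 2, as the mean of both substrains. The 17 higher genes in NHsd mice became 27 without J cerulein replicate 1, 11 without NHsd cerulein replicate 1 or NHsd saline replicate 2 or 3, and 9 without NHsd cerulein replicate 3. The 22 lower genes in J mice with equal medians became 14 without J cerulein replicate 2 or J saline replicate 2, and the 3 higher ones became 6 and 1. The 3 genes higher with equal medians as the mean of both substrains became 1 without J saline replicate 1 or 2, NHsd cerulein replicate 1 or NHsd saline replicate 2. The comparisons of J with NHsd gave 0 called in every leave-one-out fit. Apart from the fits without J cerulein replicate 1, no share of all genes stands beside the leave-one-out counts. A moved count is therefore not a result about these genes alone.

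Equal medians takes the same 0.58 off the log2 change of every gene, and genes with a positive change smaller than that turned. With equal medians the log2 change was -0.50 for Cox4i1, -0.079 for Cox6a1, -0.20 for Cox6b1, -0.20 for Cox7a2, -0.41 for Atp5g2 and -0.55 for Atp5g3. With J cerulein replicate 1 also left out these were -0.58, -0.12, -0.24, -0.31, -0.51 and -0.56. After quantile normalization the same genes changed by -0.07, 0.40, 0.21, 0.10, -0.27 and -0.19, of which Cox6a1 and Cox6b1 were called higher and Atp5g3 lower, so Cox6a1, Cox6b1 and Cox7a2 kept the sign they had as deposited. Without a filter Ndufv3, Uqcrh, Cox7a2l and Cox7a2 were no longer called.

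Same-numbered arrays of different groups had deviations that correlated at -0.16 to 0.34 over 18 pairs, and differently numbered ones at -0.37 to 0.25 over 36 pairs, so the replicate numbers were not taken as pairs. With the replicate number as a block, 37 genes were higher and 5 lower as the mean of both substrains, 33 and 2 in J mice, and 18 and 4 in NHsd mice, and with equal medians 3 and 36, 3 and 21, and 0 and 33. No share of all genes stands beside these block counts, so they are not a result about these genes alone. Arrays have no counting depth, and genes near log2 4 carry little signal over background.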

Other observations

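There were 9 probe sets that carry a complex I symbol together with another gene and were left out of the comparisons. Those of Ndufb4 with its copies Ndufb4b and Ndufb4c were well above log2 4, unlike the probe set of Ndufb4 alone. One of them read 11.03, 10.14 and 10.19 in J cerulein mice, against 10.32, 10.42 and 10.18 in J saline mice, and 10.59, 9.99 and 10.30 in NHsd cerulein mice, against 10.57, 10.47 and 10.39 in NHsd saline mice. J cerulein replicate 1 was the highest of all 12 arrays, and the groups overlapped. The probe set shared by Ndufs6 and Ndufs6b read 11.04, 10.29 and 10.17 in J cerulein mice, against 10.22, 10.17 and 10.13 in J saline mice, and 10.57, 10.04 and 10.17 in NHsd cerulein mice, against 10.17, 10.16 and 10.17 in NHsd saline mice. That of Ndufa11 with Ndufa11b read 10.15, 9.54 and 9.48 in J cerulein mice, against 9.31, 9.29 and 9.21 in J saline mice, and 9.84, 9.28 and 9.44 in NHsd cerulein mice, against 9.53, 9.495 and 9.503 in NHsd saline mice. Replicate 1 was the highest cerulein array of its substrain for these 3 probe sets. The signal of a gene and of its copy cannot be told apart there, and none of them was tested.

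Where a gene had several kept probe sets, as 39 of the 71 did, 0 had probe sets called in opposite directions under either scaling. In 17 genes as deposited and 14 with equal medians at least 1 probe set was called and another was not. Signs differed between probe sets of 5 genes as deposited. One of them was Sdhc, whose second probe set changed by -0.20 as deposited (limma adjusted p = 0.164), against 0.68 for the probe set used.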
